A study of Mus musculus with 35 samples.

Results

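The transcriptional response of cultured adult mouse cardiac fibroblasts (CFs) to TGF-β was read from the cells that carried the Scrambled siRNA (si-NC in the labels), the negative control of the knockdown. The response is the set of 3 Scrambled libraries labelled TGF-β against the 3 Scrambled libraries with no stimulus in the label, so 6 of the 35 samples of the series, joined gene by gene on the identifiers of the 2 count tables. Each table held 55487 genes, and 21508 of them passed a filter on low estimated counts and were tested. Nothing about the response was used to choose the libraries.

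Both groups were CFs isolated by enzyme digestion from adult mouse hearts and kept in serum-containing medium, and both had received a Scrambled siRNA. Strain and age of the mice behind these cultures were not given in the labels, although the study's methods state an age for mice used in CF isolation. The tissue was written as adult fibroblast for the TGF-β libraries and as adult mouse cardiac fibroblast for the untreated ones. The study states a TGF-β dose for its PCR and protein assays of such cells, but the dose and duration for these libraries, and the times of the untreated cells, were not given in the sources used here. Each group had 3 libraries numbered 1 to 3, and nothing stated whether these were separate cell isolations, so p-values measure the spread between libraries, which may be technical. The 2 groups stood in separate tables, so the stimulus and the table cannot be told apart for any value below. Also compared were the 3 Scrambled libraries kept with IL-17, an inflammatory cytokine (24 hours of siRNA and then 24 hours of IL-17 in their labels), and the TGF-β and untreated libraries of CFs that carried siR-1 or siR-2 (si-IAMP-1 and si-IAMP-2), siRNAs against IAMP, a micropeptide that the mouse gene 4930523C07Rik encodes. In bulk libraries such as these, fewer cells of a type and less RNA per cell cannot be told apart.

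TGF-β is secreted as a latent complex held in the matrix by latent TGF-β binding proteins and is set free by integrins, proteases or thrombospondin. The free dimer joins a type II and a type I receptor, which phosphorylate SMAD2 and SMAD3; these enter the nucleus with SMAD4 and switch on genes of matrix, adhesion and contraction, together with inhibitors such as SMAD7 that close the loop. In the heart the pathway is best known for turning resident CFs into myofibroblasts, cells that carry α-smooth muscle actin stress fibers and lay down and crosslink collagen in a scar.

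Libraries of the same group lay close together. Totals were 105068333 to 106947519 estimated counts in the TGF-β libraries and 114763924 to 119232309 in the untreated ones. Over 13376 genes at 1 CPM (estimated counts scaled to a common library size) or more, the median SD of log2 CPM within a group was 0.0760 for TGF-β and 0.0725 for untreated, whereas group means were apart by a median of 0.472. The first principal component of all 27 CF libraries held 64.8% of the variance and set the TGF-β table apart from the other tables, while Scrambled untreated and Scrambled IL-17 libraries overlapped on it. The second held 15.5% and separated the siRNAs. Fibroblast markers summed to 9141 to 9227 CPM in untreated and 14297 to 14888 CPM in TGF-β libraries. The 9 cardiomyocyte markers summed to 91.0 to 98.4 CPM in untreated and 5.57 to 6.31 CPM in TGF-β libraries. Among them Myh6, the myosin of working cardiomyocytes, was at 0 in all but 1 of the 6 libraries. Mitochondrially encoded genes took 2.41% to 2.54% of CPM in untreated and 3.26% to 3.54% in TGF-β libraries. By exon length, the median log2 fold change was 0.19 among the genes of the shortest exons and -0.17 among those of the longest (each 1 of 3 equal classes), with 6.18% and 13.2% of them lower with TGF-β. The part of these shifts in the results below was not tested.

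The IAMP gene itself was not called different with TGF-β in Scrambled CFs. 4930523C07Rik, on the plus strand of chromosome 1 (chr1:160044382-160080208, GRCm38), stood at 22.0, 22.7 and 25.7 CPM untreated and 19.1, 19.5 and 22.6 CPM with TGF-β, and the groups overlapped in range (log2 fold change -0.21 ± 0.105 SE, edgeR adjusted p = 0.1). It was 3.01 ± 0.494 and 1.84 ± 0.0635 CPM in untreated siR-1 and siR-2 cells (mean ± SD, n = 3) and 4.34 ± 0.297 and 3.26 ± 0.429 CPM with TGF-β.

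TGF-β and untreated libraries differed widely. With a call set at an edgeR quasi-likelihood adjusted p of at most 0.05 and a change of at least 2-fold, 2683 genes were higher with TGF-β and 1951 were lower, which is 12.5% and 9.07% of those tested and 21.5% together. At 8-fold or more the split was 641 higher and 245 lower. Of all genes called higher, 572 had every untreated library at or under 18 estimated counts. Of those called lower, 266 had every TGF-β library there. The fitted fold of such genes depends on the prior count. The 3 TGF-β values lay wholly above or below the 3 untreated values in 13869 genes (64.5%), so a gene without overlap was the rule and not the exception here. The median log2 fold change of all genes tested was 0.03, and each list below is to be read against that value and those shares. Lists are groups of genes with a shared textbook role, and their members were counted whether or not they moved. They were chosen with earlier results of these data known, so their shares describe these data and are not a test.

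**Figure D1:**
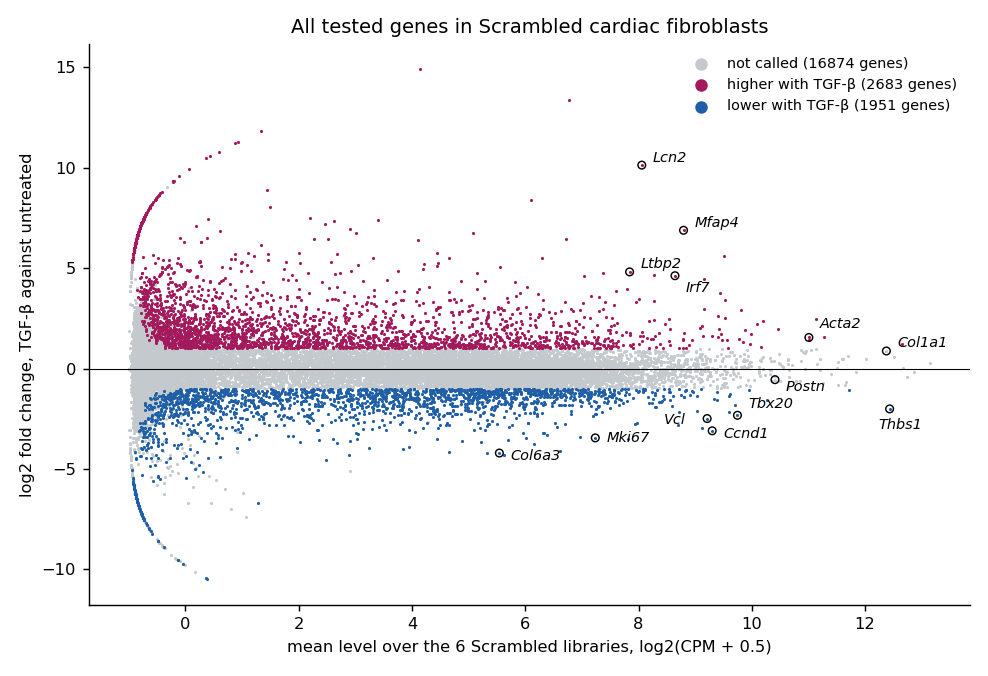
Log2 fold change of TGF-β against untreated Scrambled CFs (y axis) against mean level in log2(CPM + 0.5) (x axis) for the 21508 genes tested, each point a gene. The 2683 genes higher and 1951 genes lower with TGF-β are coloured, Lcn2 and Mfap4 stand far above 0 at high levels, and the curved edges at the left are genes at 0 in every library of 1 group, whose fitted change is set by the prior count.

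Genes of the TGF-β ligands, their activators and the latent TGF-β binding family moved both ways. Ltbp2, a matrix protein of the latent TGF-β binding family, went from 15.4, 15.0 and 16.5 CPM untreated to 445, 419 and 462 CPM with TGF-β, which is 28.2-fold higher (log2 4.82 ± 0.0613 SE, edgeR adjusted p = 6.4e-24). Whether the Ltbp2 protein holds TGF-β in these cells was not tested. Ltbp3 (named after its values were seen) rose by 1.15. Thbs1, the thrombospondin that activates latent TGF-β, fell from 9187, 9119 and 8272 to 2016, 2354 and 2243 CPM, a log2 change of -2.01 ± 0.0481. Itgav and Itgb6, the chains of an integrin that pulls TGF-β out of its complex, fell by 1.58 and 2.14 on the log2 scale, although Itgb6 was near 1 CPM even without TGF-β. The ligand genes Tgfb1, Tgfb2 and Tgfb3 stayed under 2-fold, at log2 0.74, -0.27 and -0.41. Over the list of ligands, activators and binding-family members, 2 of 13 rose and 3 fell (median log2 -0.27).

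Receptor and SMAD transcripts were lower or little changed. Tgfbr1, the type I receptor, fell from 115, 119.5 and 109 to 27.6, 31.2 and 30.2 CPM (log2 -1.95 ± 0.0512, edgeR adjusted p = 5.31e-20), while its partner Tgfbr2 went only from 186 ± 6.99 to 213 ± 7.17 CPM (mean ± SD, n = 3). The activin receptor Acvr2a was the other receptor that fell, by 1.03, so 2 of 12 receptors fell and 0 rose. All 8 SMAD genes had a log2 change under 0 with no overlap between groups, with a median of -0.78, but only Smad9, a BMP-pathway SMAD (-1.89), and Smad6, an inhibitory SMAD (-1.25), passed 2-fold. Smad3, which carries the TGF-β signal, stood at 113, 109 and 109 CPM untreated and 66.1, 69.5 and 71.5 CPM with TGF-β, a log2 change of -0.68.

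Feedback and early target genes of SMAD3 were mixed. Pmepa1, a membrane protein that traps SMADs, rose from 216, 209 and 208 to 886, 866 and 861 CPM (log2 2.04 ± 0.0372, edgeR adjusted p = 9.82e-23). Junb, an AP-1 subunit, and Ldlrad4, a second SMAD trap, rose by 1.30 and 1.08. Smad7, the inhibitor of the type I receptor, went the other way, from 117, 115 and 110.2 to 57.5, 56.5 and 58.7 CPM. Its log2 change of -0.99 sat just inside the 2-fold limit and was called by DESeq2 (-1.01) and without untreated library 3 (-1.03). Skil, a SMAD corepressor, overlapped between groups at -0.03, and Smurf2, a ubiquitin ligase for receptors and SMADs, fell by 1.65. In all 3 of 15 feedback and early target genes rose and 2 fell, not far from the shares among all genes.

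On the BMP side of the family the Id genes fell, while the list as a whole moved both ways. Whether BMP signaling changed was not tested. Id1, an inhibitor of basic helix-loop-helix factors and a direct BMP target, fell from 70.3, 63.0 and 72.1 to 12.4, 14.4 and 16.2 CPM, a log2 change of -2.26 ± 0.0782. Id2 fell by 2.04 and Id3 by 1.35, and Id4 passed the same test downward (Id3 and Id4 named after their values were seen), so the whole Id family fell. Bmp6, a BMP ligand named likewise, rose by 1.86. The BMP antagonist Grem1 fell by 2.40 from about 5 CPM. Fstl3, a secreted trap of activin, rose from 33.9, 31.2 and 29.1 to 318, 299 and 308 CPM (log2 3.29, edgeR adjusted p = 6.54e-25). Inhba, the activin subunit (named after its values were seen), fell by 1.92. Over this list 5 of 20 members tested rose and 6 fell (median log2 -0.03).

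**Figure D2:**
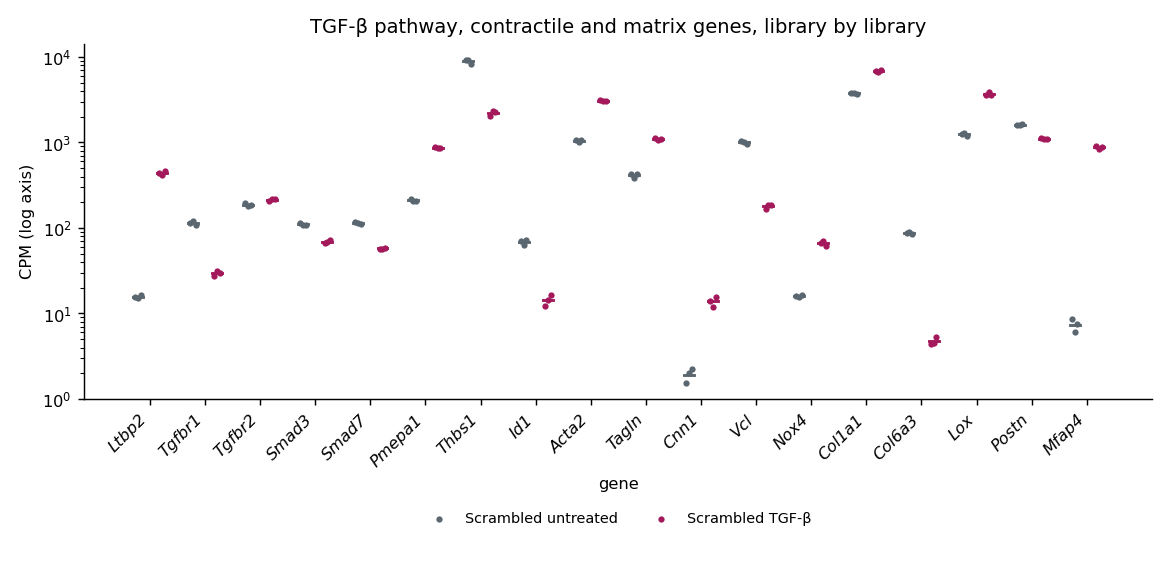
CPM in each Scrambled library (y axis, log scale) for 18 genes of the TGF-β pathway, contraction and matrix (x axis), untreated in grey and TGF-β in magenta, with a bar at each group mean of 3 libraries. Ltbp2, Pmepa1, Acta2 and Mfap4 sit wholly above their untreated values with TGF-β, and Tgfbr1, Id1, Vcl and Col6a3 wholly below.

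Contractile genes, α-smooth muscle actin among them, rose in 9 of 24 cases, and most of the others did not pass. Acta2, α-smooth muscle actin, is on the minus strand of chromosome 19 (chr19:34241090-34255590, GRCm38) and rose from 1056, 1025 and 1061 CPM untreated to 3167, 3019 and 3024 CPM with TGF-β. That is 2.92-fold (log2 1.55 ± 0.0355 SE, edgeR adjusted p = 4.74e-21), with all 3 TGF-β libraries above all 3 untreated ones. Tagln, the actin-binding protein SM22α, rose from 415 ± 27.1 to 1096 ± 23.8 CPM (mean ± SD, n = 3). The smooth muscle calponin Cnn1, the actin nucleator Lmod1 and the Z-disc protein Synpo2 rose by 2.84, 2.04 and 2.70 on the log2 scale, from levels under 25 CPM. Over the contractile and cytoskeletal list 9 of 24 rose, 2 fell and 13 did not pass (median log2 0.45).

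Vinculin, which joins actin to adhesions, and a non-muscle myosin were the members that fell. Vcl stood at 1030.1, 1018 and 969 CPM untreated and 166, 187 and 185 CPM with TGF-β, a log2 change of -2.49 ± 0.0516. The myosin heavy chain gene Myh10 (named after its values were seen) fell by 1.48. Serum response factor and its coactivators, which drive contractile genes through the CArG box, had 0 rises and 2 falls among 6 (median log2 -0.67). Srf stood at -0.57 and Mrtfa at 0.70, and Mrtfb and Myocd fell by 1.23 and 1.42. The Myocd call rested on about 1 CPM and was lost without untreated library 1 (-1.28) or TGF-β library 1 (-1.25).

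Promoters of contractile genes are shown because the 2 members below carry the same motif and moved in opposite directions. RefSeq (GRCm38.p6) promoters, from 250 bases before to 50 after the start, were found for 22 of the 24 genes. The CArG box, searched on both strands, was in 3 of these 22 (13.6%) and in 535 of 32851 promoters of the table (1.63%). Capitals mark the match. Myl9 is shown from 216 to 97 bases before its start (chr2:156775248-156775367, plus strand) and Vcl from 250 to 131 (chr14:20929148-20929267, plus strand).
Myl9: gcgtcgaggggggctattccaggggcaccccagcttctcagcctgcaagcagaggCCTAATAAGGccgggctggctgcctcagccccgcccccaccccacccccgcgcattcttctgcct
Vcl: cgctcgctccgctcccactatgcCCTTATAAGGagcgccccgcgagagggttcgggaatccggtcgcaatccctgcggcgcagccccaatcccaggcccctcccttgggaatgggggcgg
Myl9, the regulatory light chain of smooth muscle myosin (named after its values were seen), rose from 86.1, 76.7 and 85.4 to 291, 267 and 279.8 CPM. Cnn2, the third gene with the motif, stood at a log2 change of 0.46, so of 3 matching genes 1 rose, 1 fell and 1 did not pass.

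Markers of the activated CF rose in 9 of 16 cases. Nox4, the NADPH oxidase of TGF-β-treated fibroblasts, rose from 15.8, 15.7 and 16.7 to 67.5, 69.7 and 61.6 CPM (log2 2.04 ± 0.0576, edgeR adjusted p = 2.03e-19). Cthrc1, a secreted protein of scar-forming CFs, rose from 16.6, 12.3 and 16.4 to 112, 101 and 98.6 CPM. Il11, a cytokine that CFs release, rose by 1.33 from 1.80 ± 0.229 CPM. The median log2 change of this list was 1.07. The member that fell was Tnfsf11, RANK ligand, with 1.49, 1.62 and 1.58 CPM untreated and 0 counts in each TGF-β library. That is at least 9.04-fold lower against a floor of 3 read pairs a library.

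Fibrillar collagens mostly stayed under 2-fold. Col1a1 (chromosome 11, chr11:94936224-94953042, plus strand) went from 3760.2, 3795 and 3675 to 6799, 6759.8 and 7104 CPM, a log2 change of 0.88 ± 0.0312 that stayed under 2-fold although no library overlapped. Col1a2 stood at 0.45 and Col3a1 at -0.26. Of 11 fibrillar collagens 0 rose, and the 1 that fell was the cartilage collagen Col2a1, from 2.22 ± 0.145 to 1.06 ± 0.157 CPM (not called without TGF-β library 3, at -0.95). Network and fibril-associated collagens had 2 rises and 5 falls among 21, from -4.21 to 4.36.

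Col6a3 and Col8a2 set those limits. Col6a3, a chain of the beaded filaments that anchor cells, fell from 86.7, 89.8 and 86.0 to 4.38, 4.48 and 5.34 CPM (edgeR adjusted p = 1.15e-20), and Col8a2 rose from 0.595, 0.859 and 0.834 to 16.0, 15.9 and 15.3 CPM. The partner chains Col6a1 and Col6a2 (named after their values were seen) fell by 1.25 and 1.07. Basement membrane Col4a1 fell by 1.06 and its neighbor Col4a2 stood at -0.70. Among the folding and crosslinking enzymes 6 of 21 rose and 0 fell. Lox, the lysyl oxidase that crosslinks collagen, rose from 1249, 1299.6 and 1191 to 3605, 3947 and 3554 CPM, and Loxl1, Loxl3 and the transglutaminase Tgm2 rose by 1.41, 1.22 and 2.24.

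Matricellular genes had no common direction. Postn, periostin (chromosome 3, chr3:54361109-54391037, plus strand), a secreted marker of activated CFs in the injured heart, stood at 1599.6, 1614 and 1634 CPM untreated and 1115, 1104 and 1089.8 CPM with TGF-β, a log2 change of -0.55 ± 0.0344. Its TGF-β libraries all lay under its untreated ones. Ccn2, connective tissue growth factor (chromosome 10, chr10:24595442-24598683, plus strand), went from 2772, 2697 and 2381 to 3609, 3685 and 3479 CPM, at 0.45 ± 0.0420. Neither passed 2-fold.

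Other matrix genes moved much further. Mfap4, a protein of elastic fibers, rose from 8.59, 6.11 and 7.50 to 912, 831 and 895 CPM, which is 119-fold. Ccn5 rose from 189 ± 14.4 to 1165 ± 37.1 CPM (mean ± SD, n = 3), and the cartilage matrix genes Comp and Acan rose by 2.84 and 3.45 from about 1 CPM. Of 34 matricellular and elastic genes 11 rose and 5 fell (median log2 0.18).

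Proteases rose more often than they fell, and the plasminogen activators were among those that fell. The collagenase Mmp8, the gelatinase Mmp9 and the macrophage elastase Mmp12 rose by 3.49, 3.52 and 3.43, and Mmp12 reached 48.0, 45.6 and 42.0 CPM from 3.44, 4.69 and 4.41. Plau, urokinase, fell from 113, 110.1 and 110.4 to 11.9, 11.3 and 12.6 CPM (log2 -3.23 ± 0.0595, edgeR adjusted p = 1.28e-22). Plat, the tissue-type activator, and the sheddase Adam12 (named after their values were seen) fell by 2.72 and 1.86. The list had 10 rises and 3 falls among 27.

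Integrins, the receptors for matrix, fell more often than they rose. Itgb3, the β3 chain, fell from 122, 122 and 108 to 9.26, 10.8 and 11.5 CPM and Itga4, a fibronectin and VCAM-1 receptor chain, from 154, 162 and 136 to 14.6, 16.2 and 15.5 CPM. Their log2 changes were -3.48 ± 0.0685 and -3.29 ± 0.0845. Itga11, the collagen receptor of myofibroblasts, rose from 17.8, 16.9 and 18.3 to 140.2, 132 and 149 CPM. In all 7 of 17 integrins fell and 2 rose (median log2 -0.96), beside 9.07% lower among all genes.

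Genes of the resident CF moved both ways. Pdgfra, the receptor that marks CFs, fell from 347, 363 and 343 to 119, 127 and 136 CPM and Cd34 from 440.1, 416 and 430.3 to 66.1, 61.1 and 62.1 CPM. Tbx20, a cardiac T-box factor kept by CFs, fell from 1405, 1473 and 1417 to 269, 294 and 294 CPM (log2 -2.33 ± 0.0389, edgeR adjusted p = 1.95e-23). Tcf21, the factor of the resident state, stood at -0.65. Dpep1, a membrane dipeptidase, rose by 2.52. Of 24 such genes 8 fell and 5 rose (median log2 -0.58). The CF markers Dcn and Thy1 moved apart as well, at 1.96 and -1.49.

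**Figure D3:**
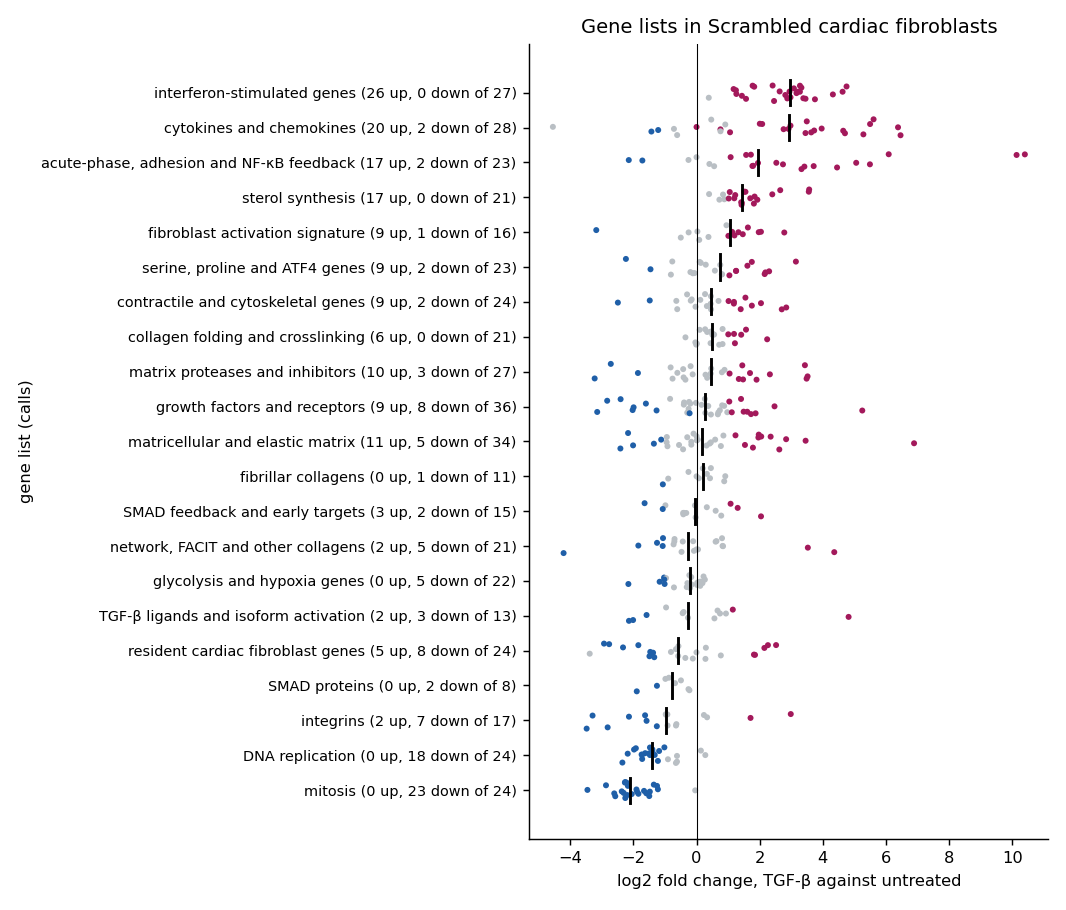
Log2 fold change of TGF-β against untreated Scrambled CFs (x axis) for every tested member of 21 gene lists (y axis, with the numbers called), rises in magenta, falls in blue and uncalled members in grey, with a bar at the median of the plotted values. A gene with a group at or under 18 estimated counts in every library is drawn at its bound. Interferon-stimulated and mitosis genes sit almost wholly to the right and left of 0, while the growth factor and matricellular lists straddle it.

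Cytokine and chemokine genes rose. NF-κB factors carry signals from cytokine receptors to such genes, which recruit neutrophils and monocytes. Cxcl1, a neutrophil chemokine (named after its values were seen), rose from 2.75, 2.58 and 1.76 to 212, 212 and 201 CPM (log2 6.46 ± 0.141, edgeR adjusted p = 2.5e-14). Cxcl5 rose from 29.9, 29.8 and 27.9 to 1462, 1451 and 1361 CPM and Ccl2, the monocyte chemokine, from 217, 194 and 219 to 1621, 1596 and 1538 CPM. Il6 rose from 20.2, 19.3 and 18.7 to 81.5, 86.2 and 78.8 CPM, and Lif, its relative, from 70.7 ± 3.31 to 148 ± 6.42 CPM (mean ± SD, n = 3). None of these overlapped between groups.

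Other members of the list were at or near 0 without TGF-β. Cxcl9 and Ccl11 had 0 counts in each untreated library and reached 0.602, 0.778 and 0.762 and 0.420, 0.467 and 0.254 CPM, at least 4.01-fold and 1.69-fold higher. Csf2 had 1 read pair over the untreated libraries and 111 with TGF-β, a ratio of 123 (95% exact interval 21.6 to 4886, counting error only). In all 20 of 28 cytokines and chemokines rose, 2 fell and 6 did not pass. The median log2 change was 3.80, or 2.91 with the 6 members under the floor in 1 group set to their bound.

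Promoters of Cxcl1 and Il6 are printed because both genes rose and both hold an NF-κB site. The letters searched were GGGANTTTCC on both strands, and they were found in 5 of 20 cytokine promoters in RefSeq (25.0%; Csf1, Cxcl1, Cxcl2, Cxcl3 and Il6) and in 135 of all 32851 (0.411%). Cxcl1 is shown from 126 to 7 bases before its start (chr5:90891119-90891238, plus strand) and Il6 from 120 to 1 (chr5:30012994-30013113, plus strand), with the match in capitals.
Cxcl1: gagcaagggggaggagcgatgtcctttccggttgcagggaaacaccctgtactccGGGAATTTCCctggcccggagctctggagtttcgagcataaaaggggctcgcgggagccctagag
Il6: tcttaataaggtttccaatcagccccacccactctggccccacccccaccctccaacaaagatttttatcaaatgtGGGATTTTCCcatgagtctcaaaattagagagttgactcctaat
Nfkbia, the inhibitor that NF-κB switches on, was the 1 gene with this site among 17 acute-phase promoters, and it rose from 18.9, 17.0 and 18.9 to 67.9, 73.3 and 70.4 CPM.

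Acute-phase genes rose as well, some by the widest margins seen in any list. Lcn2, a siderophore-binding protein, went from 0.174, 0.417 and 0.810 CPM untreated to 533, 538 and 524 CPM with TGF-β, 1125-fold (log2 10.14 ± 0.268 SE, edgeR adjusted p = 5.55e-13). Saa3, serum amyloid A3, had 1 read pair over the 3 untreated libraries and 236, 203 and 210.1 CPM with TGF-β. Its ratio was 11209, with a 95% exact counting interval of 2011 to 442778. Nos2, the inducible nitric oxide synthase, reached 11.2 ± 0.904 CPM (mean ± SD, n = 3) from 0.149, 0.0584 and 0, and complement C3 (named after its values were seen) reached 1040.1, 1026 and 1187 CPM from 48.6, 39.1 and 60.8. Of 23 members tested 17 rose and 2 fell, with a median log2 change of 2.53, or 1.95 at the bounds. Ptgs2, the inducible cyclooxygenase, was 1 of the 2 that fell, at -2.15.

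Leukocyte markers were also higher in the TGF-β libraries. The 8 macrophage and leukocyte markers tested summed to 57.7 to 61.5 CPM untreated and 157 to 166 CPM with TGF-β, with 4 of 8 up and 1 down. Lyz2, lysozyme, went from 39.1 ± 2.06 to 113 ± 1.69 CPM, while Ptprc, CD45, stayed at 0.653, 0.384 and 0.906 and 0.620, 1.23 and 0.998 CPM with overlap. Their part in the inflammatory rise was not tested. Cardiomyocyte markers summed to 91.0 to 98.4 CPM untreated and 5.57 to 6.31 CPM with TGF-β, most of it Tnnt2. Endothelial markers went from 72.5 to 78.7 CPM to 125 to 127 CPM (3 of 8 up, 1 down), pericyte and smooth muscle markers from 102 to 116 CPM to 64.3 to 65.7 CPM (2 of 6 up, 1 down) and epicardial markers from 60.9 to 64.8 CPM to 24.6 to 29.4 CPM (1 of 4 up, 2 down). Schwann cell markers stayed at or under 12.5 CPM, with 2 of 4 up and 0 down. The fibroblast markers themselves had 1 up and 3 down of 8. None of 5 sex-linked genes passed 2-fold, but their sum was lower with TGF-β. It was 241 to 257 CPM untreated, 252 to 255 CPM with IL-17 and 165 to 182 CPM with TGF-β. Xist, on the X chromosome, was near 0 in both groups, with 5 read pairs over the untreated and 2 over the TGF-β libraries.

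Interferon-stimulated genes rose almost as a whole. Type I interferon makes cells express them through a complex that holds STAT2 and IRF9 and binds the interferon-stimulated response element (ISRE), and their products block viral RNA and load antigen. Irf7, the factor that amplifies the loop, rose from 39.0, 21.8 and 32.3 to 743, 759 and 801 CPM (log2 4.63 ± 0.251, edgeR adjusted p = 1.54e-09). Isg15 rose from 47.2, 30.7 and 35.3 to 316, 361 and 342 CPM, Ifit1 from 65.7, 24.4 and 44.6 to 410.0, 493 and 446 CPM and Ifi44 from 16.2, 7.09 and 12.3 to 291, 352 and 317 CPM. The untreated libraries were uneven for these genes, with untreated library 2 lowest in each, yet every TGF-β library stood far above all of them.

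Of 27 interferon-stimulated genes 26 rose and 0 fell (median log2 2.94), against 12.5% of all genes. The oligoadenylate synthetases Oas1a and Oas2 rose by 3.75 and 4.32. B2m, the light chain of class I antigen, rose from 683, 726 and 677 to 4009, 3792 and 3659 CPM. B2m is also in common use as a reference gene, and of 15 such genes 1 rose and 2 fell. Among them Gapdh stood at 0.12, Actb at -0.66, and Tfrc and Pgk1 fell by 1.66 and 1.02.

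ISRE letters (GAAANNGAAA on either strand) were in 12 of the 22 promoters of this list that RefSeq held (54.5%) and in 1131 of 32851 (3.44%). Isg15 and Ifit1 are printed since each holds more than 1 match and both rose. Isg15 is shown from 127 to 8 bases before its start (chr4:156200826-156200945, minus strand), with 3 overlapping matches in capitals, and Ifit1 from 150 to 31 (chr19:34640739-34640858, plus strand), with 2 separate ones that read on the opposite strand.
Isg15: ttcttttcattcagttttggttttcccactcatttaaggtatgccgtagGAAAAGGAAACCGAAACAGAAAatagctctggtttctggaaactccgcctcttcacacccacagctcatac
Ifit1: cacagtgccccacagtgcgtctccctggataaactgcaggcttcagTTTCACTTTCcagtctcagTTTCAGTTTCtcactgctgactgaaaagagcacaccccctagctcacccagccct
The other matching members were B2m, Bst2, Gbp2, Gbp3, Ifit3, Igtp, Irgm1, Oas1a, Rsad2 and Stat2. Besides these motifs, a sterol element (TCACNCCAC) was in 1 of 13 sterol synthesis promoters (7.69%) and in 1.24% of all promoters. A SMAD palindrome (GTCTAGAC) was in 0 of 7 promoters of SMAD feedback and early target genes and in 0.213% of all.

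**Figure D4:**
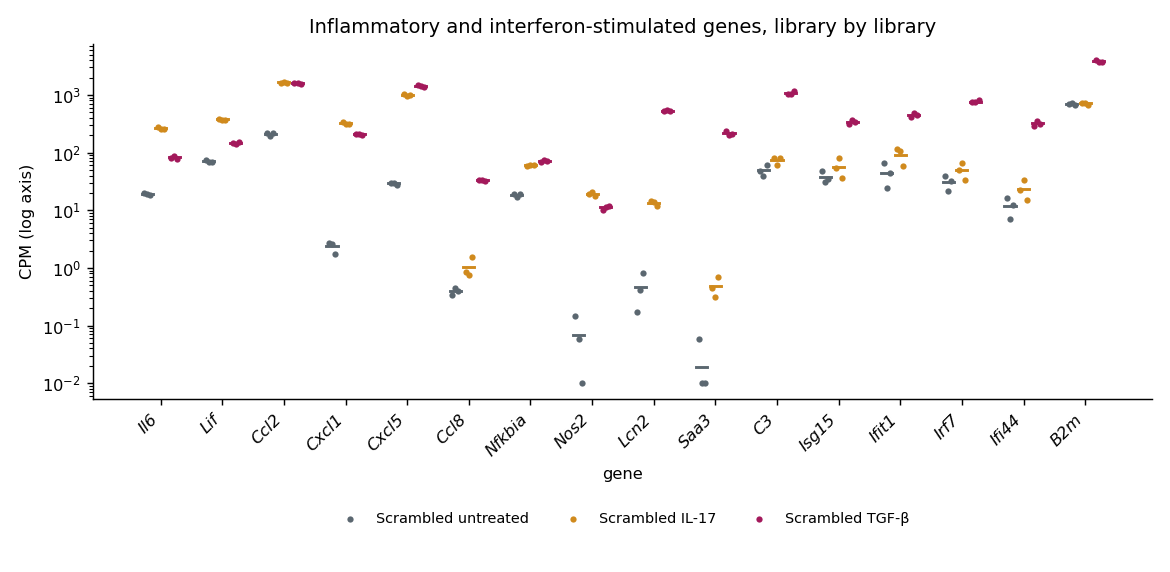
CPM in each Scrambled library (y axis, log scale, values under 0.01 drawn at 0.01) for 16 inflammatory and interferon-stimulated genes (x axis), untreated in grey, IL-17 in orange and TGF-β in magenta, with a bar at each mean of 3 libraries. Cxcl1, Ccl2 and Nfkbia are high with both cytokines, whereas Irf7, Ifi44, B2m, C3 and Lcn2 stand highest with TGF-β.

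Genes of cell division were lower almost to a gene. Mki67, which marks cycling cells, fell from 274, 290.2 and 262 to 21.8, 25.5 and 28.2 CPM (log2 -3.46 ± 0.0956, edgeR adjusted p = 3.18e-14). Top2a, topoisomerase II, fell from 248, 250.1 and 249 to 48.1, 53.6 and 53.6 CPM, and the kinetochore protein Cenpf by 2.87. Of 24 mitosis genes 23 fell and 0 rose (median log2 -2.11). The 1 that did not was Ube2c, the ubiquitin enzyme of mitotic exit, at 58.8, 56.0 and 60.8 and 55.5, 60.2 and 55.2 CPM with overlap.

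DNA replication genes followed, with 18 of 24 lower and 0 higher (median log2 -1.40). Mcm2, a subunit of the replicative helicase, fell from 81.2 ± 2.49 to 29.3 ± 1.52 CPM, and Pola1, the polymerase that starts each strand, by 2.35. Ccnd1, cyclin D1, which drives cells out of G1, fell from 1145, 1138 and 1103 to 128, 136 and 131 CPM. Cdkn2b, the p15 inhibitor of CDK4 that TGF-β is known to induce, rose from 18.7, 19.3 and 20.0 to 100.2, 102 and 103 CPM, and Cdkn1a, p21, stood at 0.49. Of 11 CDK inhibitors and D cyclins 2 rose and 4 fell. Cell number in the cultures was not measured in these files.

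Growth factor genes were split. Hgf, hepatocyte growth factor, fell from 42.2, 45.0 and 38.4 to 5.76, 6.96 and 4.98 CPM and Fgf10 by 3.15, whereas Pdgfb rose by 2.47. Agtr1a, the angiotensin II receptor of CFs, rose from 0.149, 0.200 and 0.192 to 6.81, 7.39 and 6.57 CPM. The list held 9 rises and 8 falls among 36. WNT ligands and inhibitors held 7 and 7 among 22, many of them under 2 CPM. Axin2 and Lef1, targets of WNT signaling (named after their values were seen), fell by 2.37 and 1.72. Rspo1 had 0 counts in each untreated library and 0.912, 0.522 and 0.771 CPM with TGF-β, at least 3.47-fold higher, and Rspo2 the reverse, with 1.02, 0.567 and 1.22 CPM untreated and 0 with TGF-β, at least 3.44-fold lower.

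Sterol synthesis genes rose. SREBP2 switches them on when cell cholesterol is low. Insig1, a sensor that holds SREBP in the endoplasmic reticulum and is itself an SREBP target, rose from 24.6, 24.4 and 24.6 to 293, 298 and 283 CPM (log2 3.57 ± 0.0459, edgeR adjusted p = 1.92e-25). Mvd, an enzyme of the mevalonate pathway, rose from 10.4, 11.7 and 10.8 to 71.9, 65.0 and 70.2 CPM, and Hmgcs1 and Dhcr7 by 1.51 and 2.40. Of 21 genes 17 rose and 0 fell (median log2 1.43), and all 21 stood above 0 with no overlap of libraries.

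Other metabolic lists were mixed. Trib3, a pseudokinase of the ATF4 stress program, rose from 2.97, 3.62 and 3.63 to 30.8, 29.0 and 30.9 CPM and the amino acid transporter Slc1a4 by 2.18, while Psat1, of serine synthesis, fell by 2.24, so 9 of 23 rose and 2 fell. Glycolysis and hypoxia genes had 5 falls and 0 rises among 22, with Ldha from 928 ± 30.6 to 414 ± 12.9 CPM. Of the NRF2 targets 3 of 21 rose and 1 fell, among the former the glutathione transferases Gsta3 (2.01) and Gstm1 (1.64), which have close paralogs.  Among 11 adipogenic genes tested 3 rose and 1 fell. Apod rose from 1.21, 1.08 and 0.906 to 45.2, 46.2 and 53.3 CPM and Pparg, the master factor of fat cells, fell by 2.53.

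Immediate-early genes, which respond to serum and to handling within minutes, had 2 rises and 5 falls among 15. Egr1 fell from 91.1, 92.3 and 97.0 to 26.6, 28.5 and 30.5 CPM and Nr4a1 by 2.51, while Ier3 rose by 1.56. Heat-shock chaperones held 1 rise among 11, Hspb1 at 1.36.

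Among called genes at 5 CPM or more on average with no overlap between groups, the 10 largest rises included genes outside the lists. Npy1r, a neuropeptide Y receptor, rose from 0.132, 0.0918 and 0.120 to 19.4, 21.0 and 19.1 CPM, Cilp, a cartilage matrix protein of fibrotic hearts, reached 15.3, 13.1 and 13.5 CPM from 0.141, 0.142 and 0.0481, and Angptl7 reached 10.9, 9.45 and 9.51 CPM from 0.124, 0.0751 and 0. The class I antigen genes H2-Q6 and H2-Q7 rose by 8.38 and 6.78. They are near-identical to their neighbors, so how reads were shared among them is uncertain, as it is for the processed pseudogene Gm17383, with 0 counts in each untreated library and 34.1 ± 2.60 CPM with TGF-β.

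The 10 largest falls lay between -4.55 and -3.89 on the log2 scale. Tnnt2, cardiac troponin T, fell from 94.0, 89.1 and 97.3 to 4.92, 4.48 and 4.88 CPM, Ptn, pleiotrophin, from 73.9, 68.5 and 82.5 to 4.11, 4.57 and 3.52 CPM and the chromatin protein Hmga2 from 192, 181 and 176 to 11.1, 11.5 and 9.33 CPM. The orphan receptor Nr4a3, the phosphatase Dusp5, the desmosomal protein Pkp1, the cytokine Tnfsf15, Nrn1, Cd300lb and Col6a3 made up the rest. The choice of these 10, as of the 10 rises, required that the groups not overlap, so their separation is not a result.

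TGF-β and IL-17 libraries also differed at many genes. In the fit of all 27 CF libraries 2600 of 22359 genes were higher with TGF-β than with IL-17 (11.6%) and 2202 lower (9.85%), 21.5% together. The TGF-β libraries are shared with the comparison above, and each stimulus has its own table. Interferon-stimulated genes were higher with TGF-β in 22 of 27 and sterol genes in 19 of 21, with medians of 2.29 and 1.54. Mitosis genes were lower in 23 of 24, at -2.05.

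The inflammatory lists had calls on both sides. Of 28 cytokines and chemokines 10 were higher with TGF-β and 5 with IL-17, and of 24 acute-phase genes 11 and 4. Il6 was higher with IL-17, at 280.3, 252 and 253 CPM, by 1.67 on the log2 scale, and so was Lif, by 1.35. Ccl2 stood at 1643 ± 35.3 CPM with IL-17 and 1585 ± 42.8 CPM with TGF-β, a log2 difference of -0.05 ± 0.0450 SE. Lcn2 was higher with TGF-β by 5.32 (14.6, 13.7 and 11.6 CPM with IL-17), Saa3 by 8.79 and C3 by 3.88. Largest by size were Saa3, Mfap4 (7.05) and Cilp (0, 0 and 0.222 CPM with IL-17) on the TGF-β side, and Sele, the endothelial adhesion molecule E-selectin (-5.45), Nr4a3 (-5.43) and Serpinb2 (-4.81) on the IL-17 side. Acta2 was 907, 882 and 902 CPM with IL-17, under every TGF-β library (log2 1.77, edgeR adjusted p = 1.06e-28).

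The same contrast in CFs with siR-1 or siR-2 was taken between libraries of their own. For siR-1 the TGF-β libraries had 2761 genes higher (12.8%) and 1734 lower (8.06%), 20.9% together, and for siR-2 they had 2789 higher (13.0%) and 1736 lower (8.07%), 21.0% together. Interferon-stimulated genes rose in 27 and 27 of 27 and mitosis genes fell in 23 and 19 of 24. Sterol genes rose in 20 and 9 of 21, contractile genes in 5 and 8 of 24, and crosslinking genes in 1 and 8 of 21. Acta2 went from 1284, 1258 and 1188 to 2041, 1967 and 1929.9 CPM with siR-1, which did not pass 2-fold (0.67), and from 637, 607 and 619.9 to 1445, 1522 and 1539 CPM with siR-2 (1.27).

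**Figure D5:**
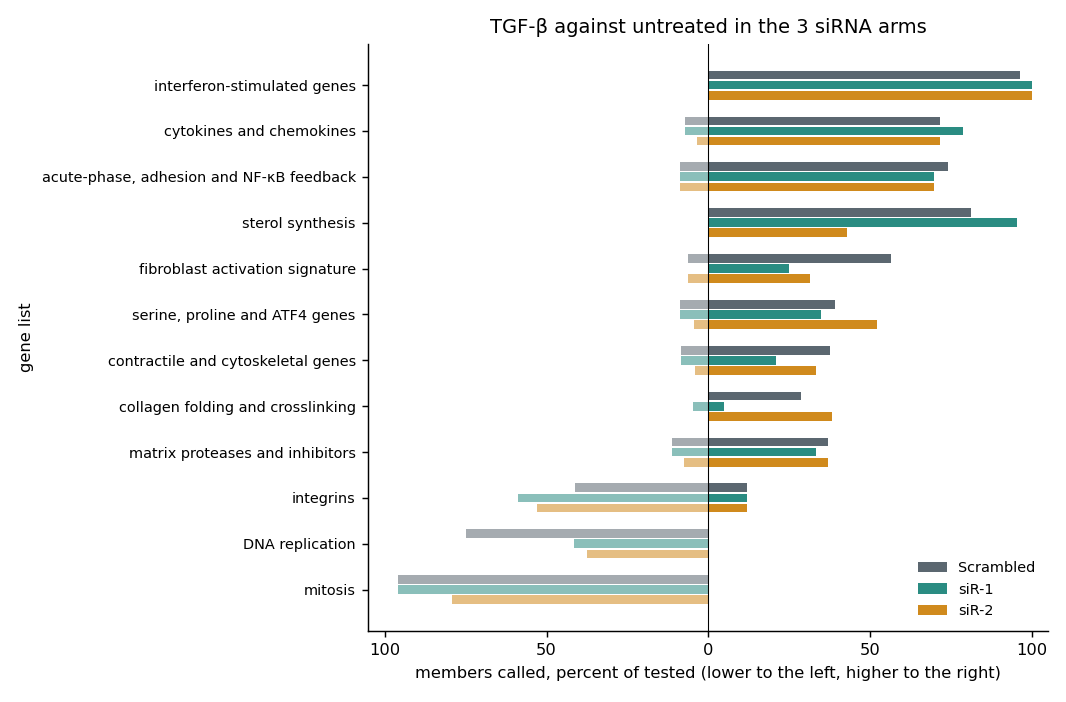
Percent of the tested members of 12 gene lists (y axis) that were higher (to the right) or lower (to the left, paler) with TGF-β than untreated in CFs with Scrambled, siR-1 or siR-2 (x axis, percent of tested). Interferon-stimulated genes reach 26, 27 and 27 of 27, and crosslinking genes range from 1 of 21 with siR-1 to 8 of 21 with siR-2.

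Where the response itself was tested for a difference from Scrambled, fewer genes passed than for the response. For siR-1 the response was higher in 307 genes (1.43%) and lower in 201 (0.935%), 2.36% together. With siR-2 it was higher in 619 (2.88%) and lower in 476 (2.21%), 5.09% together. Both differences share the Scrambled libraries, so a gene called in both was not found in independent data each time.

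Some of the genes above were among them. Tgfbr1 fell by 1.95 in Scrambled cells and stood at -0.92 and -0.89 with siR-1 and siR-2, differences of 1.03 ± 0.0707 and 1.06 ± 0.0704. The former was not called without Scrambled TGF-β library 1 (0.98) or siR-1 TGF-β library 1 (1.00). Cxcl5 rose by 3.18 and 4.02 with siR-1 and siR-2 against 5.61 in Scrambled cells. Untreated siR-1 and siR-2 cells already held 282 ± 5.16 and 180.5 ± 8.34 CPM, and their TGF-β level (2558 ± 125 and 2939 ± 90.8 CPM) was above that of Scrambled cells. Ltbp2, Mfap4 and Cnn1 rose less with siR-1, by 1.24, 1.82 and 1.24, and their differences with siR-2 did not pass (-0.05, -0.33 and -0.39). Scara5, a ferritin receptor of resident CFs, fell by 2.93 in Scrambled cells, from 2.26, 2.05 and 2.44 to 0.228, 0.412 and 0.245 CPM, but rose by 1.00 with siR-1 and stood at 0.42 with siR-2. Those arms began lower, at 0.769 ± 0.230 and 0.251 ± 0.0695 CPM.

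With siR-2, 11 of 27 interferon-stimulated genes rose more than in Scrambled cells, and with siR-1 3 did. Acta2 missed the threshold for a difference in both, at -0.88 ± 0.0492 with siR-1 (edgeR adjusted p = 6.75e-12) and -0.28 ± 0.0491 with siR-2 (edgeR adjusted p = 9.4e-05), since neither reached 2-fold.

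The largest differences are given with the levels behind them. F3, tissue factor, stood at 31.6, 31.9 and 29.8 CPM in untreated Scrambled cells and at 427 ± 2.78 and 214 ± 8.26 CPM in untreated siR-1 and siR-2 cells, and at 60.6 ± 3.62, 92.5 ± 5.84 and 56.2 ± 1.08 CPM with TGF-β. Its log2 change was 0.96 in Scrambled cells and -2.21 and -1.93 with the siRNAs. Cxcl10, an interferon-induced chemokine, was 8.22 ± 5.26 CPM untreated in Scrambled and 0.982 ± 0.455 CPM in siR-2 cells, and rose to 92.7 ± 25.4 and 176 ± 66.8 CPM. Alpl, alkaline phosphatase, moved in opposite directions, from 3.00 ± 0.353 to 8.67 ± 0.0836 CPM in Scrambled and from 38.5 ± 2.07 to 13.2 ± 0.609 CPM in siR-2 cells. Phc3, a polycomb protein, fell from 63.8 ± 5.45 to 8.33 ± 0.910 CPM in Scrambled cells and went from 67.0 ± 3.30 to 54.1 ± 3.28 CPM in siR-1 cells and from 12.3 ± 0.454 to 10.4 ± 1.43 CPM in siR-2 cells. Ackr4 and Gbp4 above Scrambled and Col28a1 below made up the rest for siR-1, and Tgtp2 and Gm12250 above and Ccl8 below for siR-2.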

How the data were processed

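RNA of cultured CFs was sequenced by the submitters and deposited as 3 tables of estimated counts per gene, 1 for each stimulus. According to the methods and labels, the authors trimmed reads with cutadapt, aligned them to GRCm38 with HISAT2 and had StringTie estimate the counts. Strand setting, annotation release and the step to whole numbers are not given in the sources used here. In long genes 1 read pair was worth about 6 estimated counts, so 3 read pairs (18 estimated counts) in a library served as the floor for a bound.

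Tables were joined on the gene identifier. Genes were filtered with filterByExpr, scaled by TMM and tested with edgeR 4.0.16 (robust quasi-likelihood, R 4.3.3) with Benjamini-Hochberg adjustment over all genes tested, in a fit of 18 libraries in 6 groups, or of all 27 in 9 groups for the comparison with IL-17. The SE of a log2 change was derived as its absolute value divided by the square root of the quasi-likelihood F statistic. CPM used the same scaling. Coordinates came from GENCODE vM21 and matched 55141 identifiers. Members and lists were chosen with earlier results of these data known. Named genes were IAMP and Acta2, Col1a1, Postn and Ccn2, the first 2 genes of each list with up to 4 of its widest calls, the 10 widest rises and falls at 5 CPM or more, and the 3 widest calls each way in the other contrasts. The widest rises, falls and calls over all genes were taken only where the groups did not overlap. The edgeR fit of 18 libraries was run on simulated counts for the Scrambled response and for its difference with siR-1. The other steps were not tested this way. Some genes of the lists are counted but not reported here by name.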

Additional observations from a re-analysis of the deposited data

Results flagged for a closer look

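The TGF-β response of Scrambled CFs was set against that of CFs with siR-1 or siR-2 by the interaction of stimulus and siRNA in the fit of 18 libraries, and the named genes whose response differed by at least 2-fold at an edgeR adjusted p of at most 0.05 are given here as log2 differences, siRNA minus Scrambled. Genes at or under 18 estimated counts in every library of a Scrambled group were left out, because their fitted difference depends on the prior count. Groups of 3 libraries were too small to look for single outlying libraries.

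In both siRNA arms the response lay above that of Scrambled cells for Ackr4 (2.81 with siR-1 and 1.43 with siR-2), Egr1 (1.11 and 1.71), Gbp4 (2.36 and 2.28), Phc3 (2.63 and 2.69), Ptn (1.84 and 2.11), Scara5 (3.93 and 3.35), Sele (1.15 and 1.47), Tgfbr1 (1.03 and 1.06) and Tgtp2 (1.83 and 3.18). It lay below in both for Ccl8 (-2.21 and -3.12), Col28a1 (-2.47 and -2.43), Cxcl5 (-2.43 and -1.58), F3 (-3.17 and -2.89) and Mmp8 (-1.25 and -1.57). The Scrambled libraries are common to both differences.

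With siR-1 alone, H2-Q7 (1.19), Hmgcs1 (1.06), Nr4a1 (1.06) and Nr4a3 (1.46) passed above Scrambled, and Cnn1 (-1.24), Ltbp2 (-1.24) and Mfap4 (-1.82) below. With siR-2 alone, 4930523C07Rik (1.03), Cd300lb (2.13), Col6a3 (1.78), Cxcl10 (3.99), Gm12250 (3.11), Hmga2 (1.40), Ifit1 (1.27), Mki67 (1.01) and Plau (1.53) passed above, and Alpl (-3.07), Fgf10 (-1.48), Il6 (-1.86), Insig1 (-1.62), Mvd (-1.51), Serpinb2 (-1.95), Tgm2 (-1.37) and Tnfsf15 (-1.16) below. Several of these calls were lost in part of the leave-outs of 1 library, at log2 differences from 2.11 to 2.39 for the siR-1 and 1.82 to 2.31 for the siR-2 difference of Gbp4, 0.90 to 1.33 for H2-Q7, 1.07 to 1.61 for Nr4a3, 0.92 to 1.41 for Ifit1, 0.91 to 0.99 for Mki67 and 0.94 to 1.00 for 4930523C07Rik. Nr4a1 was lost without Scrambled TGF-β library 3 (0.97), Sele with siR-1 without siR-1 TGF-β library 1 (0.99) and Tnfsf15 without siR-2 TGF-β library 2 (-0.99). Whether the siR-1 and siR-2 differences themselves differ was not tested. 4930523C07Rik is the target of both siRNAs, so its response there is a change from a lowered level.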

How the results depend on the processing

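Calls were recomputed with other scaling, filters, thresholds, library sets, DESeq2 and each library left out. Counts over all genes stayed within 1.5 times the value given in the report, except at a 1.5-fold threshold, where the Scrambled response had 4027 genes higher and 3487 lower, TGF-β against IL-17 had 3996 higher and 3745 lower, the responses with siR-1 and siR-2 had 3320 and 3335 lower, and the differences from Scrambled had 703 higher and 504 lower for siR-1 and 1418 higher and 1078 lower for siR-2. DESeq2 called 2768 higher and 2151 lower in Scrambled cells. With estimated counts divided by 6 and rounded, fewer genes passed the filter. In Scrambled cells 15656 were then tested, with 2285 higher and 1698 lower. With the replicate number as a block, 2637 genes were higher and 1935 lower, of which 2593 and 1911 were among the original calls. Same-numbered libraries did not deviate together (correlations of -0.07, 0.01 and -0.07), and the block was kept out of the report. Whether the numbers pair the libraries is not stated, and these correlations cannot settle it.

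With 1 library left out at a time, genes called ranged from 2499 to 2579 higher and 1821 to 1988 lower in Scrambled cells, 2588 to 2624 and 1638 to 1701 with siR-1, 2606 to 2709 and 1640 to 1681 with siR-2, 2360 to 2471 and 2072 to 2216 against IL-17, and 257 to 332 and 176 to 213 (siR-1) and 563 to 652 and 418 to 448 (siR-2) for the differences. Among the recomputed values of named genes, none changed direction with an adjusted p of at most 0.05 before or after the change. Only some named genes were recomputed for contrasts other than the Scrambled response. Counts within lists moved by over 1.5 times, 29 of 78 of them at the 1.5-fold threshold and the following elsewhere. With 1 library left out, CDK inhibitors higher went from 2 to 1 (untreated library 3 or TGF-β library 3), SMAD feedback genes lower from 2 to 1 (TGF-β library 2), SRF and MRTF factors lower from 2 to 1 (library 1 of either group), fibrillar collagens higher from 0 to 1 (untreated library 3) and lower from 1 to 0 (TGF-β library 3), cardiomyocyte markers higher from 0 to 1 (untreated library 3), sex-linked genes lower from 0 to 1 (TGF-β library 2) and pericyte markers lower from 1 to 2 (library 1 or 3 of either group). At a minimum of 10 counts in every library, SRF and MRTF factors lower went from 2 to 1, activation genes lower from 1 to 0, WNT genes lower from 7 to 4, epicardial markers higher from 1 to 0 and Schwann cell markers higher from 2 to 1. Pericyte markers lower were 2 with either other scaling, with no filter and with DESeq2, and cardiomyocyte markers higher were 1 with counts divided by 6 or only the groups compared. The median of the cytokine list fell from 3.80 to 2.93 with the 10-count minimum, that of the acute-phase list from 2.53 to 1.94 with no filter and 1.93 with DESeq2, and that of the Schwann cell markers went from 1.01 to 0.17 with the 10-count minimum and to 1.77 without untreated library 1. Neither the dose and time of TGF-β nor the table could be separated from the response.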
